A study of Mus musculus with 4 samples.

Results

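The 3 nuclear RNA polymerases were examined through the genes of their subunits and of the factors that bring RNA polymerases I and III to their promoters, in lung stem cells with and without depletion of c-Myc. Members were all probe sets whose gene symbol in the platform annotation began with Polr1, Polr2 or Polr3 followed by a letter, or was Rrn3, Ubtf, Taf1a, Taf1b, Taf1c, Taf1d, Brf1, Brf2 or Bdp1. A probe set is a group of short oligonucleotides on the array that reads 1 transcript. The rule found 71 probe sets among 45037 and 34 genes. After probe sets near background were left out, 64 of these probe sets remained among 27022, and they still read all 34 genes among 12589 tested. RNA polymerase I was represented by 9 genes, RNA polymerase II by 8, RNA polymerase III by 12 and the subunits shared between polymerases by 5. Probe sets that also name a second gene were not used, which leaves out Polr2k and Polr2l.

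RNA polymerase I transcribes the large ribosomal RNA precursor in the nucleolus, RNA polymerase II transcribes messenger RNAs, and RNA polymerase III transcribes transfer RNAs, 5S ribosomal RNA and other small RNAs. Each enzyme is a complex in which the largest and the second-largest subunit form the catalytic centre, some smaller subunits are common to several polymerases, and separate initiation factors place the enzyme at its promoters. c-Myc is a transcription factor that binds E-box DNA together with Max, and it is known for raising ribosome production, to which all 3 polymerases contribute.

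The cells were bronchoalveolar stem cells (BASCs) from lungs of ICR mice aged 4 to 6 weeks, sorted for the surface proteins Sca-1 and CD34 and for lack of CD31 and CD45, and grown over irradiated embryonic fibroblasts of the mouse. Passaging was onto such fibroblasts according to the study's methods and onto collagen according to its results, so feeder cells may have been present. RNA of 2 control and 2 Myc-depleted samples was hybridised to 4 Affymetrix arrays of the mouse genome. By the labels' treatment protocol the depleted cells were stable lines made with a lentivirus carrying a short hairpin RNA against c-Myc and selected with puromycin over several generations. The sources used here do not state the hairpin of these arrays or whether their controls, which the study calls wild type, received virus and puromycin, so infection and selection cannot be told apart from depletion. The arrays of each group are numbered 1 and 2 with no statement that they came from separate cultures, so p-values measure only the spread between arrays, which may be technical.

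All values are log2 expression values, and differences are Myc-depleted minus control. Myc, the targeted gene, was at 9.21 and 9.69 on control arrays 1 and 2 and at 8.35 and 8.50 on Myc-depleted arrays 1 and 2. The difference was -1.02 (SE 0.21), which left 49.2% of the control level, with no overlap of the groups and an adjusted p of 0.363 in limma. Sftpc and Scgb1a1, the genes whose proteins define BASCs, and the sort marker Cd34 lay under the low-value threshold of 5.08 on every array, as did the epithelial genes Cdh1, Krt18 and Nkx2-1. The gene of the sort marker Sca-1, Ly6a, was not analysed here. Epcam, an epithelial surface protein gene, was above it on every array, at 6.89 and 7.12 in control and at 7.80 and 7.52 in Myc-depleted cells (difference 0.65), and the club cell gene Cyp2f2 passed it on the Myc-depleted arrays only (4.58 and 4.35 against 5.26 and 5.44). Of 13 lung epithelial markers 4 were tested, and the level summed over the list (log2 of the sum) was 9.04 to 9.05 on control and 9.24 to 9.33 on Myc-depleted arrays. Of 10 fibroblast markers 9 were tested, with Col1a2 between 14.3 and 14.6, and the summed level was 16.3 to 16.4 on control and 16.2 to 16.5 on Myc-depleted arrays. Within that list single genes separated the groups by more than any polymerase gene did on its representative probe set, with differences of -1.26 for Thy1 and 1.23 for Pdgfra, and others were 0.67 for Dcn and 0.44 for Pdgfrb. Of 4 blood cell markers 3 were tested, with a summed level of 9.43 to 9.92 on control and 9.36 to 10.1 on Myc-depleted arrays, while Ptprc, which defines blood cells, and Pecam1, which defines endothelial cells, were under the threshold on every array. The part of these markers in the results was not tested.

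The arrays also differed in how evenly transcripts were read along their length. The mean of the 5′ probe sets of the poly-A spike-in RNAs, which are added to each sample as controls, was 6.53 on control array 1, 5.20 on control array 2, 4.54 on Myc-depleted array 1 and 6.97 on Myc-depleted array 2. Control array 1 and Myc-depleted array 2 were thus alike, as were the other two, so each group held 1 array with a higher and 1 with a lower signal. Of 34 member genes 5 followed this order over all 4 arrays (Taf1b, Polr2m, Polr3k, Polr3f and Brf2) and 2 the reverse order (Polr2a and Polr2b). Over all genes tested, 5.81% followed it and 5.98% reversed it. Differences within the arrays of like signal (Myc-depleted 2 minus control 1, and Myc-depleted 1 minus control 2) are therefore given beside the main results. RNA of the samples themselves also differed between these pairs. For the actin gene Actb, 3′ minus 5′ signal was 0.60 and 1.36 on control and 1.95 and 0.69 on Myc-depleted arrays 1 and 2. A 3′ control probe set of 18S ribosomal RNA was at 8.23 and 10.4 against 10.7 and 8.71. The part of these signals in the results was not tested.

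Promoters were examined because c-Myc binds DNA directly, by way of the E-box letters CACGTG or the related CACGCG. RefSeq promoters of assembly GRCm38.p6, from 250 bases before to 50 bases after the transcription start, were held for 28 of the 34 genes and not for Brf1, Brf2, Polr2d, Polr2g, Polr3a and Polr3d. Both strands were searched. CACGTG reads the same on both, and CACGCG appears as CGCGTG when it lies on the other strand. No match overlapped another. The 6 promoters below are those of the RNA polymerase I subunit gene Polr1e (chr4:45018359-45018658, plus strand), the RNA polymerase I initiation factor gene Rrn3 (chr16:13780449-13780748, plus strand), the shared subunit gene Polr2h (chr16:20717576-20717875, plus strand), and the RNA polymerase III subunit genes Polr3e (chr7:120917528-120917827, plus strand), Polr3g (chr13:81710964-81711263, minus strand) and Polr3gl (chr3:96594132-96594431, minus strand). All 6 hold a motif, and their genes hold an E-box or are among those with the largest differences described further on. The promoters of Polr1a, Polr1b and Bdp1, which are also among those with the largest differences, hold neither motif and are not printed. Each printed promoter is written 5′ to 3′ in the direction of its gene, and capitals mark the motifs.
Polr1e: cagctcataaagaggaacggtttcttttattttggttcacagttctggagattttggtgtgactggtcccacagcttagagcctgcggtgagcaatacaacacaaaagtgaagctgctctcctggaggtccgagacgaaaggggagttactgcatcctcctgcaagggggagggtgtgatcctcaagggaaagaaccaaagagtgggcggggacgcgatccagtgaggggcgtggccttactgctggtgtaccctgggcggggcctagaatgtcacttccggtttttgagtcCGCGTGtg
Rrn3: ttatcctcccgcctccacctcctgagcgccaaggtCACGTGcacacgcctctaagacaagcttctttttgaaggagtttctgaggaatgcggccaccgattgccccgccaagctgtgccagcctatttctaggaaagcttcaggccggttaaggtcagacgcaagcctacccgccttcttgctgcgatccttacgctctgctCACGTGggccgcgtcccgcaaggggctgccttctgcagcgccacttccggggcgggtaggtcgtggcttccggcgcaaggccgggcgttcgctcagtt
Polr2h: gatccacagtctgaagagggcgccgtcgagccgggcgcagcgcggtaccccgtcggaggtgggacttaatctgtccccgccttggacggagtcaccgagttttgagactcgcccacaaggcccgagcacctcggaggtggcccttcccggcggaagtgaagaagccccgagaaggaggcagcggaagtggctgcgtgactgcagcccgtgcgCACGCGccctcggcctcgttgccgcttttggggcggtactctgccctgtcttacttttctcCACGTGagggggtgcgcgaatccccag
Polr3e: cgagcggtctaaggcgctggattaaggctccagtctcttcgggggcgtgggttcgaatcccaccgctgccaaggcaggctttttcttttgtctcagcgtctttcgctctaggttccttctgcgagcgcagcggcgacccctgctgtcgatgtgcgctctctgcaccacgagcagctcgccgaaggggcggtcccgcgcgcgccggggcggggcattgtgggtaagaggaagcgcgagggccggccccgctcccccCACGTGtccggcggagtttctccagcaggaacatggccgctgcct
Polr3g: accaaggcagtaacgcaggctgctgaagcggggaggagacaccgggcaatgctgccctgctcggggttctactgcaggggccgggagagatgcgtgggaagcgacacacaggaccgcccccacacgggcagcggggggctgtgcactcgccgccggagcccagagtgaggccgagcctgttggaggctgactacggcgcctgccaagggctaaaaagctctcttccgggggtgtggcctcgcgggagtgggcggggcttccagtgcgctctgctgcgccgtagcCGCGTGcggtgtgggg
Polr3gl: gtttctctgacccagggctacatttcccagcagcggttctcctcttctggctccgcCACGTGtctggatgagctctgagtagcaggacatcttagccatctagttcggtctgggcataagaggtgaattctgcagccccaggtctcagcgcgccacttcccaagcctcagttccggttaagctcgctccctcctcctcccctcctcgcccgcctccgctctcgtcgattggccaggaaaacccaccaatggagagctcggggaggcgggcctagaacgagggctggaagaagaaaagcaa

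CACGTG was found in promoters of 5 member genes, which is 17.9% of the 28 with a promoter. The share was 11.5% of the 10152 genes tested on the arrays that had a promoter and 8.09% of all 27025 genes in the promoter table. Rrn3 held 2 copies, 215 and 48 bases before the start, and Polr3gl held 1 copy 194 bases before it. In Polr2h and Polr3e the motif lay 23 and 5 bases after the start, and Polr3c, whose promoter is not printed, held it 237 bases before. CACGCG was found in 12 member genes (42.9%), against 19.5% of genes tested on the arrays and 10.5% of all genes. It lay 42 bases after the start in Polr1e and 34 bases after it in Polr3g. Of the 37 member promoters, 13.5% held CACGTG and 35.1% CACGCG, against 9.66% and 16.5% of promoters of genes tested on the arrays and 7.15% and 9.27% of all promoters in the table. These matches are a description of the letters in these windows only.

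No member gene passed the test between Myc-depleted and control cells. The differences farthest from 0 included those of the RNA polymerase I subunit genes Polr1a (-0.34), Polr1b (-0.55) and Polr1e (-0.48), which were lower. They also included a pair of paralogous RNA polymerase III subunits, Polr3g (-0.67) and Polr3gl (0.46), in opposite directions. Polr3e (-0.43) and Bdp1 (-0.35) of RNA polymerase III and the shared Polr2h (-0.34) lay at least as far below 0 as Polr1a. In limma with Benjamini-Hochberg adjustment, 0 of 27022 probe sets (0%) and 0 of the 64 member probe sets were called at an adjusted p under 0.05. The smallest adjusted p was 0.110 over all probe sets and 0.317 among the members. An unadjusted p under 0.05 in limma was reached by 2726 of the 27022 probe sets and by 6 of the 64 member probe sets. By gene, 2 of 34 members were lower at that level (Polr1e and Polr3g), beside 5.23% of all genes, and 1 was higher (Polr3gl), beside 6.96%. RNA was taken from whole cultures, so fewer cells of a type and less RNA per cell cannot be told apart.

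Of the 34 genes, 22 had a difference below 0, beside 46% of all genes tested. The groups did not overlap for 10 genes that were lower, beside 20.8% of all genes, and for 3 that were higher, beside 26.6%. The median difference was -0.08 for the members and 0.02 for all genes, whose quartiles were -0.13 and 0.17. By polymerase the median was -0.16 for RNA polymerase I and its factors, -0.05 for RNA polymerase II, -0.04 for RNA polymerase III and its factors and -0.07 for shared subunits. The RNA polymerase I value was -0.075 without Myc-depleted array 2. The RNA polymerase III value was -0.0011 without control array 1, -0.081 without control array 2 and 0.037 without Myc-depleted array 1. The RNA polymerase II value was -0.11 without control array 2, and the value of shared subunits ran from -0.13 without control array 2 to -0.014 without control array 1. The medians of RNA polymerases II and III and of shared subunits lay within the quartiles of all genes, and that of RNA polymerase I lay just below the lower one. The values farthest from 0 belonged to single subunits. The plot of differences by polymerase shows where those subunits sit.

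**Figure D1:**
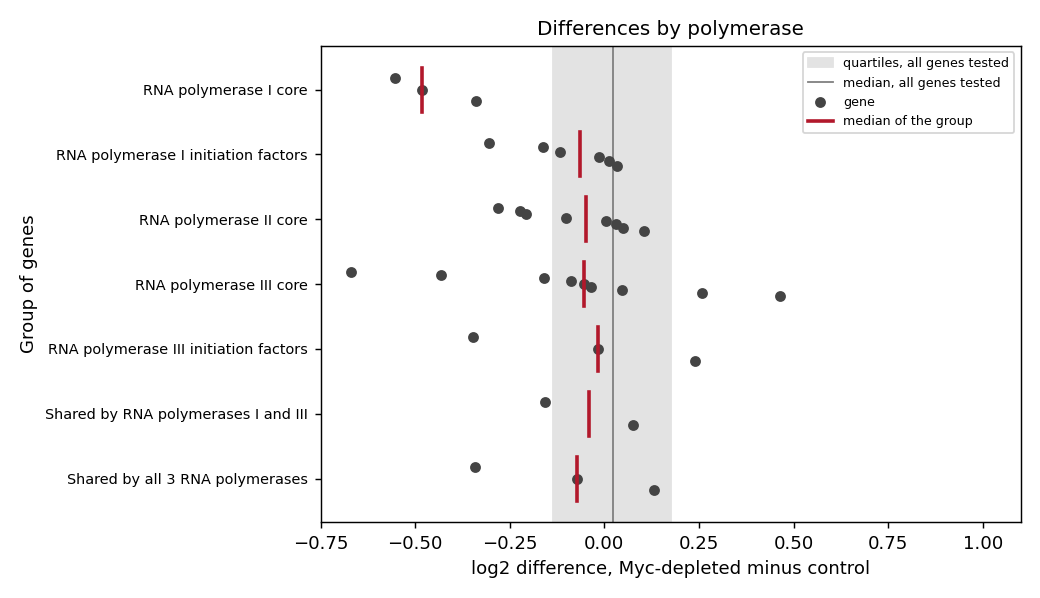
Log2 difference between Myc-depleted and control arrays (x axis) for each of the 34 genes (points), by polymerase and role (y axis), with the median of each group as a red line and the median and quartiles of all 12589 genes tested as a grey line and band. The 3 core genes of RNA polymerase I found by the symbol rule (Polr1a, Polr1b and Polr1e) lie between -0.55 and -0.34, left of the band, while RNA polymerase III core genes spread from -0.67 to 0.46.

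Polr1a, Polr1b and Polr1e, the core subunit genes specific to RNA polymerase I that the symbol rule found, were lower on both Myc-depleted arrays than on both control arrays. The platform lists further subunits of the enzyme under older symbols, and of these Twistnb (-0.44) and Znrd1 (-0.10) were also lower without overlap while the groups of Cd3eap (-0.03) overlapped. Polr1a encodes the largest subunit, which with the product of Polr1b forms the catalytic centre. Polr1a was at 9.50 and 9.32 in control and at 8.97 and 9.17 in Myc-depleted cells. This gave a difference of -0.34 (SE 0.14, 95% confidence interval -0.74 to 0.06, adjusted p in limma 0.549), or 79.0% of the control level, and the difference was -0.34 in both pairs of arrays with like spike-in signal. The groups did not overlap, yet the interval reached past 0. Polr1b, which encodes the second-largest subunit, was at 8.37 and 8.18 in control and at 7.44 and 8.01 in Myc-depleted cells. Its difference of -0.55 (SE 0.24, 95% confidence interval -1.21 to 0.10, adjusted p in limma 0.551) came more from Myc-depleted array 1 than from array 2, and was -0.74 and -0.36 within the pairs. Without Myc-depleted array 1 it was -0.27.

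Polr1e encodes a subunit that forms a dimer with the product of Cd3eap on the body of the enzyme, and its promoter, printed above, holds CACGCG. It was at 7.84 and 7.80 in control and at 7.27 and 7.41 in Myc-depleted cells. Both control values lay well above both Myc-depleted values and close to each other. The difference was -0.48 (SE 0.12, 95% confidence interval -0.81 to -0.15, unadjusted p in limma 0.016, adjusted p 0.395), which left 71.7% of the control level, and was -0.43 and -0.53 within the pairs. Together Polr1a, Polr1b and Polr1e were read by 6 tested probe sets, all of them lower without overlap between groups, with differences from -0.63 to -0.34. Over all probe sets tested, 18.5% were lower without overlap and 22.5% higher. Probe sets of 1 gene read the same transcripts on the same arrays and do not replicate each other. The median over the 3 genes was -0.57 for Myc-depleted array 1 against control array 1, -0.53 against control array 2, and -0.36 and -0.18 for Myc-depleted array 2 against the same controls.

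For all 6 initiation factors of RNA polymerase I the groups overlapped on the probe set that represented the gene. Rrn3, which links the polymerase to the factors bound at the ribosomal DNA promoter, was at 9.44 and 9.46 in control and at 9.38 and 9.50 in Myc-depleted cells. Its difference of -0.01 had a 95% confidence interval from -0.34 to 0.31, and its promoter, printed above, holds 2 E-boxes. Ubtf encodes a protein that binds along ribosomal DNA and keeps it open. It was at 9.17 and 9.38 in control and at 9.21 and 9.11 in Myc-depleted cells, a difference of -0.12 (SE 0.14). A dimmer Ubtf probe set, with 6.90 and 5.63 in control and 4.69 and 6.49 in Myc-depleted cells, was high on the arrays of higher spike-in signal in both groups, and its difference was -0.68.

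Taf1a, Taf1b, Taf1c and Taf1d encode the subunits that, with the TATA-binding protein, form the selectivity factor of the ribosomal DNA promoter. The differences were 0.03 for Taf1a, -0.16 for Taf1b and 0.01 for Taf1c. The brightest probe set of Taf1d was at 8.98 and 9.17 in control and at 9.07 and 8.47 in Myc-depleted cells, and its difference of -0.30 came from Myc-depleted array 2. All 7 tested probe sets of Taf1d had a difference below 0, from -1.01 to -0.30. Of these, 4 were lower without overlap between groups, beside 18.5% of all probe sets tested. The probe set with the largest difference was at 6.79 and 6.97 in control and at 5.74 and 6.01 in Myc-depleted cells. That difference of -1.01 (SE 0.16, 95% confidence interval -1.44 to -0.57) had an unadjusted p of 0.0030 in limma and an adjusted p of 0.317, the smallest among the members. The next was at 6.17 and 6.21 against 5.42 and 5.12, a difference of -0.92. Taf1d probe sets thus ran from overlapping to well separated, and which transcript forms each of them reads was not settled here.

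**Figure D2:**
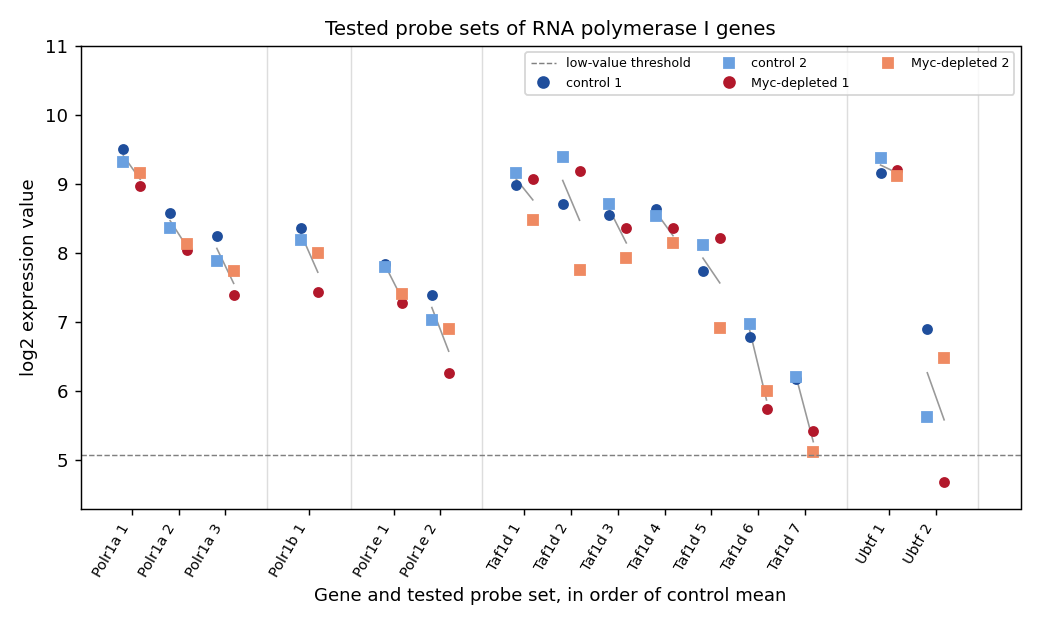
Log2 expression value (y axis) on each of the 4 arrays for the tested probe sets of Polr1a, Polr1b, Polr1e, Taf1d and Ubtf (x axis, numbered within a gene by control mean), with grey lines joining the group means and the low-value threshold of 5.08 dashed. In the 6 probe sets of Polr1a, Polr1b and Polr1e both Myc-depleted points lie below both control points, while several Taf1d probe sets and both Ubtf probe sets overlap.

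The subunits specific to RNA polymerase II lay within the middle range of all genes or slightly below it. Differences of the 8 genes ran from -0.28 to 0.10, 4 were below 0, and 2 were lower without overlap (Polr2g and Polr2i), near the share of 20.8% among all genes. Polr2a encodes the largest subunit, whose repeated tail coordinates transcription with RNA processing. It was at 9.53 and 9.88 in control and at 10.17 and 9.45 in Myc-depleted cells. The Myc-depleted arrays held both the highest and the lowest value, and the difference of 0.10 had a 95% confidence interval from -0.74 to 0.95. A second Polr2a probe set differed by -0.12. Polr2b, the second-largest subunit, was at 11.02 and 11.04 in control and at 11.19 and 10.94 in Myc-depleted cells, a difference of 0.03 with an interval from -0.36 to 0.42.

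Polr2g and Polr2d encode the stalk, a module that projects from the enzyme near the exit of the new RNA. Polr2g was at 11.33 and 11.10 in control and at 10.80 and 11.07 in Myc-depleted cells. The groups nearly touched, and the difference of -0.28 (SE 0.17) had an adjusted p of 0.658 in limma. Polr2d was at 10.07 and 9.69 in control and at 9.33 and 9.98 in Myc-depleted cells, which overlapped, for a difference of -0.22. Polr2c, part of the assembly platform of the enzyme, was at 10.23 and 9.97 in control and at 9.72 and 10.06 in Myc-depleted cells. It also overlapped, with a difference of -0.21. The small subunit gene Polr2i was at 9.68 on both control arrays and at 9.63 and 9.54 on the Myc-depleted arrays, a difference of -0.10 with no overlap. Polr2j, the partner of Polr2c, differed by 0.00, and Polr2m, which encodes a protein that binds the enzyme and restrains it, by 0.05.

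RNA polymerase III subunits showed the widest spread of the members, with differences from -0.67 to 0.46. Of 9 core genes, 6 were below 0, 3 were lower without overlap (Polr3d, Polr3e and Polr3g) and 2 were higher without overlap (Polr3b and Polr3gl), where the shares among all genes were 20.8% and 26.6%. The genes of the catalytic subunits had differences above 0. Polr3a, the largest, was at 8.81 and 8.66 in control and at 8.71 and 8.84 in Myc-depleted cells. Its difference was 0.05 (95% confidence interval -0.31 to 0.41). Polr3b, the second-largest, was at 8.25 and 8.56 in control and at 8.64 and 8.68 in Myc-depleted cells. Both Myc-depleted values lay above both controls, and the difference was 0.26 (SE 0.15, adjusted p in limma 0.659). It was 0.43 and 0.09 within the pairs, and 0.11 without control array 1 and 0.41 without control array 2. The other tested probe sets differed by 0.27 and, for a dim one, by 0.01.

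Polr3g and Polr3gl encode alternative forms of the same subunit, of which an RNA polymerase III complex carries only one. The Polr3g form is known from embryonic stem cells and tumour cells, and the Polr3gl form from differentiated tissues. Polr3g was at 6.84 and 7.18 in control and at 6.48 and 6.20 in Myc-depleted cells. The groups did not overlap, and the difference of -0.67 (SE 0.19, 95% confidence interval -1.20 to -0.14) left 62.8% of the control level, with an unadjusted p of 0.024 and an adjusted p of 0.428 in limma. Polr3gl was at 7.19 and 7.38 in control and at 7.86 and 7.64 in Myc-depleted cells. Its groups did not overlap either, in the opposite direction. The difference of 0.46 (SE 0.15, 95% confidence interval 0.06 to 0.87) brought it to 138% of the control level, with an unadjusted p of 0.034 and an adjusted p of 0.456 in limma. Within the pairs of arrays with like spike-in signal the differences were -0.64 and -0.70 for Polr3g and 0.45 and 0.48 for Polr3gl.

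The change of Polr3gl relative to Polr3g within an array was 1.13 on the log2 scale, or 2.19-fold. It is given as a description, since the pair was singled out with these values known and each gene rests on 1 probe set. The printed promoters differ in their letters, with CACGTG upstream of Polr3gl and CACGCG after the start of Polr3g.

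**Figure D3:**
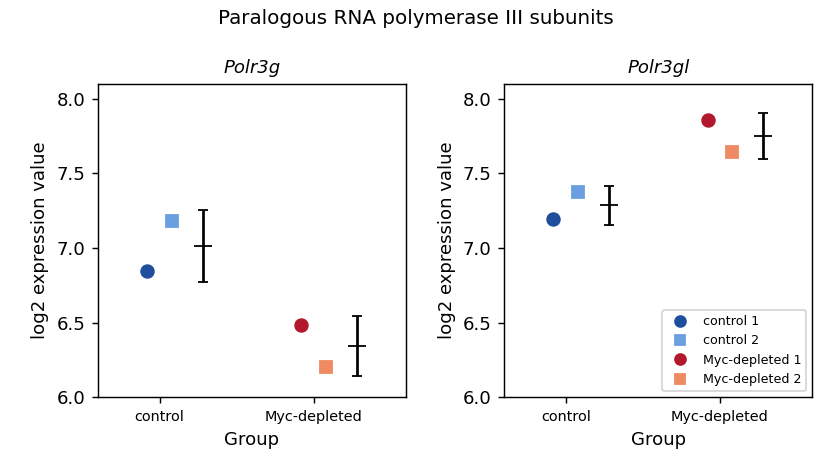
Log2 expression values (y axes) of Polr3g and Polr3gl on the 2 control and 2 Myc-depleted arrays (x axis), with the mean and SD of each group in black. Polr3g is at 6.84 and 7.18 in control and 6.48 and 6.20 in Myc-depleted cells, and Polr3gl is at 7.19 and 7.38 against 7.86 and 7.64. Levels of the 2 panels come from different probe sets and are not compared with each other.

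The other core genes of RNA polymerase III were nearer to 0 or were read differently by different probe sets. Polr3e and Polr3d encode a dimer with a role in starting and ending transcription. Polr3e was at 8.37 and 8.59 in control and at 8.17 and 7.93 in Myc-depleted cells. The groups did not overlap and the difference was -0.43 (SE 0.16, adjusted p in limma 0.498), with -0.44 and -0.42 within the pairs, but a second and dimmer probe set, at 5.77 and 5.97 against 5.96 and 6.05, differed by 0.13. Polr3d differed by -0.16. Polr3c and Polr3f encode the partners of Polr3g and Polr3gl in a module that opens promoter DNA. Polr3c was at 8.30 and 8.31 in control and at 8.31 and 8.13 in Myc-depleted cells, a difference of -0.09. Its second probe set, at 7.42 and 6.05 against 4.93 and 7.26, was also high on the arrays of higher spike-in signal, with a difference of -0.64.

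Polr3f was at 7.44 and 6.99 in control and at 6.91 and 7.45 in Myc-depleted cells. The groups overlapped throughout, and its 4 tested probe sets differed by -0.21 to 0.02. Polr3k encodes a small subunit that works in RNA cleavage and termination. It was at 9.36 and 9.22 in control and at 8.95 and 9.53 in Myc-depleted cells, a difference of -0.05, and its 4 tested probe sets ranged from -0.22 to 0.31. No single direction can be given for either gene.

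TFIIIB, the factor that recruits RNA polymerase III, consists of the products of Bdp1 and of Brf1 or Brf2 with the TATA-binding protein, and for all 3 genes the groups overlapped. Bdp1 was at 9.23 and 9.35 in control and at 9.30 and 8.60 in Myc-depleted cells, so its difference of -0.35 rested on Myc-depleted array 2. Without that array the difference was 0.0025. Brf1, used at transfer RNA and 5S genes, was at 6.95 and 7.47 in control and at 7.70 and 7.21 in Myc-depleted cells. Its difference of 0.24 (SE 0.27) was smaller than the SD of either group (0.37 in control and 0.35 in Myc-depleted cells), and was -0.018 without control array 1. Brf2, used at genes such as that of U6 small nuclear RNA, differed by -0.02.

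Among subunits shared between polymerases, Polr2h was lower and the other 4 genes lay near 0 or were read differently by different probe sets. Polr2h, common to all 3 polymerases, was at 9.45 and 9.29 in control and at 8.90 and 9.15 in Myc-depleted cells. The groups did not overlap, and the difference was -0.34 (SE 0.15, 95% confidence interval -0.76 to 0.07, adjusted p in limma 0.559), with -0.30 and -0.39 within the pairs. The promoter printed above holds both motifs, and a second Polr2h promoter in the table holds neither. Polr2e, also common to all 3, was at 10.86 and 10.58 in control and at 10.69 and 11.01 in Myc-depleted cells, a difference of 0.13 with overlap. Polr2f was at 10.21 and 10.09 against 10.03 and 10.12, a difference of -0.07 with overlap, and a second and dimmer probe set differed by 0.25.

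Polr1c and Polr1d encode a dimer on which RNA polymerases I and III are assembled. Polr1c was at 10.61 and 10.60 in control and at 10.71 and 10.66 in Myc-depleted cells. The difference of 0.08 (SE 0.11) was small though the groups did not overlap, and a second probe set differed by -0.03. Polr1d was at 11.21 and 11.22 in control and at 10.99 and 11.12 in Myc-depleted cells, a difference of -0.16 with no overlap. Its other 3 probe sets lay on the opposite side, at 0.15 to 0.26, so the direction for Polr1d depended on the probe set.

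**Figure D4:**
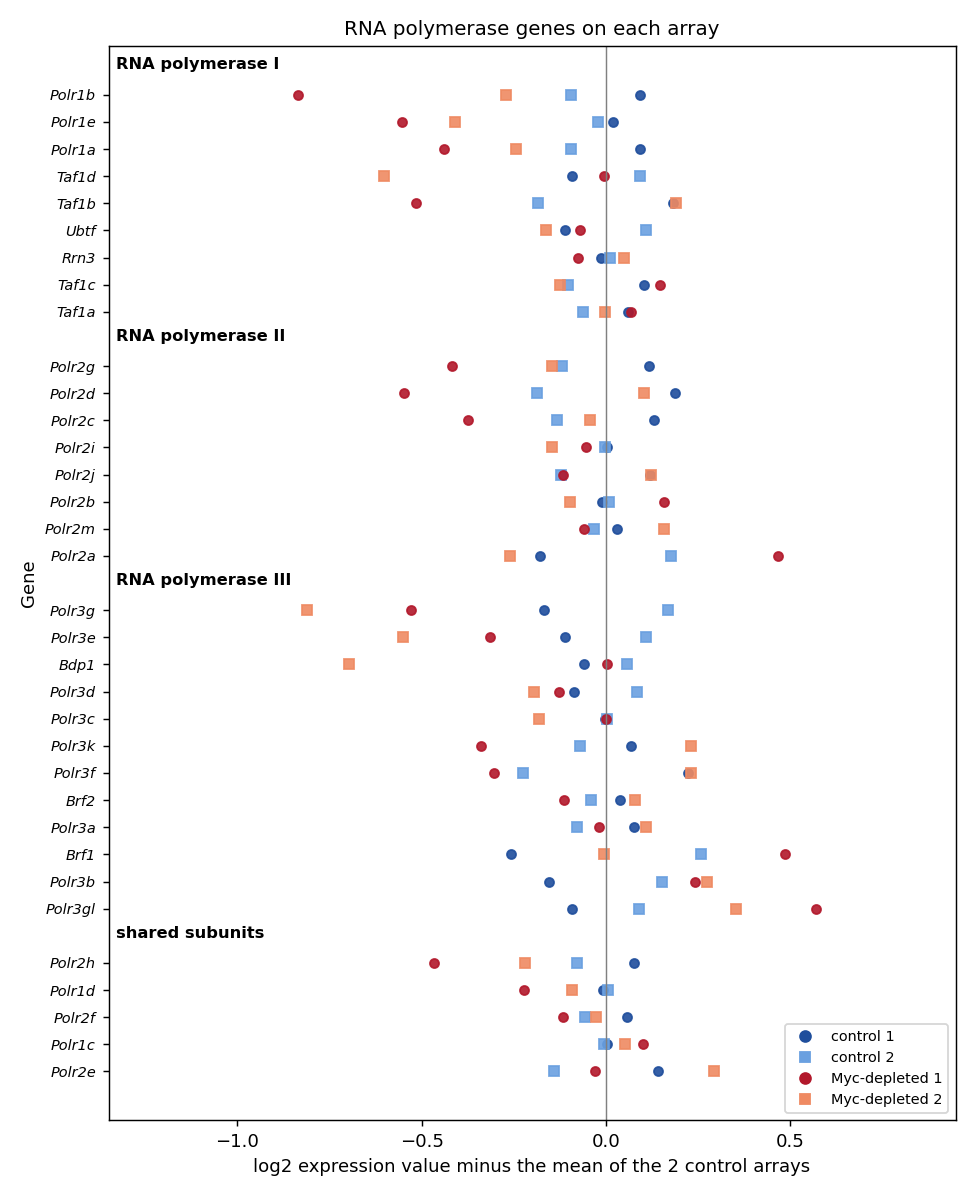
Log2 expression value of each member gene on the 4 arrays, minus the mean of the 2 control arrays (x axis), by polymerase and ordered by difference (y axis). Both Myc-depleted points lie left of both control points for Polr1a, Polr1b, Polr1d, Polr1e, Polr2g, Polr2h, Polr2i, Polr3d, Polr3e and Polr3g. Both lie right of them for Polr1c, Polr3b and Polr3gl. For 21 of the 34 genes the groups overlap, beside 6614 of all 12589 genes tested.

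Differences within the pairs of arrays with like spike-in signal were close to each other for some genes and far apart for others. Polr1a, Polr1e, Polr3g, Polr3gl and Polr3e had nearly the same difference in both pairs, as given above. Bdp1 (-0.64 and -0.06) and Taf1d (-0.51 and -0.10) differed mainly between control array 1 and Myc-depleted array 2. Taf1b differed by 0.01 and -0.33 and Polr2d by -0.08 and -0.36, mainly between control array 2 and Myc-depleted array 1. The pairs were formed after the spike-in signals were seen.

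**Figure D5:**
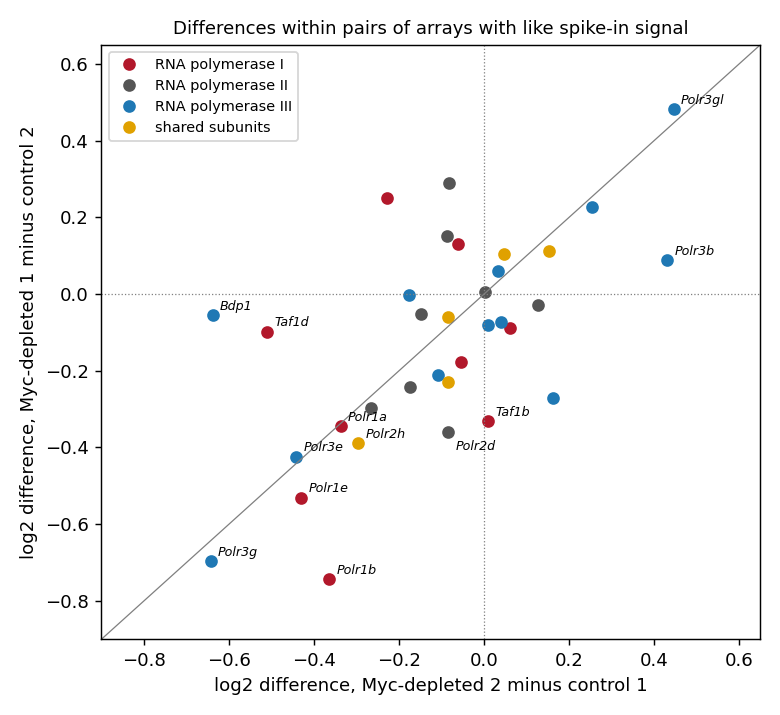
Log2 difference of each member gene within the pair of arrays with higher spike-in signal (x axis, Myc-depleted 2 minus control 1) and within the pair with lower signal (y axis, Myc-depleted 1 minus control 2), coloured by polymerase, with genes over 0.3 from 0 in either pair named. Polr1a, Polr3e, Polr3g and Polr3gl lie near the diagonal of equal differences, and Bdp1 and Taf1d lie away from it.

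Member genes were also grouped by the letters in their promoters, without a test. The 5 genes with CACGTG had a median difference of -0.09, from -0.43 for Polr3e to 0.46 for Polr3gl, with 4 below 0. The 23 genes with a promoter and no CACGTG had a median of -0.07, with 14 below 0. For the 12 genes with CACGCG the median was -0.08, with 8 below 0. Both groups of promoters thus held genes with differences on either side of 0.

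Genes that work with the polymerases gave the setting for these values. In the following lists no gene was called in limma, and the differences are values. Of 15 other RNA polymerase I genes, 10 were below 0, 7 were lower and 3 higher without overlap (20.8% and 26.6% of all genes), and the median was -0.10. Among them are subunits that the platform lists under older symbols. Twistnb, which encodes a subunit of the stalk of RNA polymerase I, was at 8.81 and 8.68 in control and at 8.41 and 8.21 in Myc-depleted cells, a difference of -0.44 (adjusted p in limma 0.456). Znrd1, another small subunit, differed by -0.10 and Cd3eap, the dimer partner of Polr1e, by -0.03. The nucleolar protein genes Nolc1 (-0.53), Npm1 (-0.46) and Tcof1 (-0.54) were lower without overlap. The 3 genes higher without overlap were Baz2a (0.60), Sirt7 (0.23) and Ttf1 (0.20), of which Baz2a encodes a component of a complex that silences ribosomal DNA.

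Of 14 other RNA polymerase III genes, such as those of TFIIIC, 6 were below 0, 3 were lower and 7 higher without overlap (20.8% and 26.6% of all genes), and the median was 0.11. The smallest p values were those of Gtf3c4 (0.26), Snapc4 (0.42) and Gtf3c3 (-0.22), where the values in parentheses are differences. Crcp, a subunit of RNA polymerase III listed under another symbol, differed by 0.20. Of 28 general factors of RNA polymerase II, 17 were below 0 with a median of -0.05, led by Taf5 (-0.30), Taf3 (0.39) and Taf8 (0.24). Of 25 elongation and pausing genes 10 were below 0 with a median of 0.02, led by the elongation factor genes Tcea3 (1.01), Ell2 (0.57) and Tcea2 (0.24).

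Among 12 genes for assembly of the polymerases 6 were below 0 (46% of all genes) and the median was -0.04. Of the 12, 4 were lower and 2 higher without overlap (20.8% and 26.6% of all genes). Ruvbl2 (-0.58) and Ruvbl1 (-0.25), which encode the ATPases of an assembly chaperone, were lower without overlap, and Rpap2 (0.34), which encodes a phosphatase of the RNA polymerase II tail, was higher. Transcription in mitochondria uses a separate, single-subunit polymerase. Of its 7 genes 3 were below 0 (46% of all genes). Polrmt, the polymerase itself (0.54), Mterf2 (1.50) and Tfam (0.25) were higher without overlap (26.6% of all genes). The 11 proliferation genes tested were all below 0, with a median of -0.47 and 7 lower without overlap (20.8% of all genes), among them Bub1 (-0.92), Top2a (-0.68) and Mcm2 (-0.62). All 11 differences had the same sign as those of Polr1a, Polr1b and Polr1e, although the groups overlapped for 4 genes, and their part in the polymerase values was not tested.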

How the data were processed

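Messenger RNA was measured on 4 single-colour Affymetrix arrays of the mouse genome, 2 of control and 2 of c-Myc-depleted BASCs. The values deposited by the authors are log2 expression values made in Partek 6.4. For normalization the study's methods give RMA (Robust Multichip Average) and the submitters' processing notes give GCRMA, a variant that models probe sequence. The files do not settle which was used, and low values depend on it most.

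The table held 45101 probe sets, of which 64 control probe sets were left out. Probe sets with a mean under the 40th percentile (log2 5.08) were not tested. Genes were named from the platform annotation, by probe sets with 1 symbol only, and each gene was represented by its tested probe set of highest mean. The groups were compared with limma 3.58.1 (lmFit and eBayes, R 4.3.3) over all 27022 probe sets with 2 residual degrees of freedom and a prior of 2.02. The threshold was an adjusted p (Benjamini-Hochberg) of 0.05. Precision is limited by having 2 arrays a group. The script was tested on simulated data. Medians, counts and non-overlap over members are descriptions without a test.

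The members, gene lists and tests were chosen with earlier results of these data known. Values on each array are given for Myc, the largest subunits, Polr3g and Polr3gl, Rrn3, Ubtf, Brf1, Bdp1, the 4 genes of smallest p in each class, and genes whose probe sets differ in sign or by over 0.5. For other genes of the pathway the 3 of smallest p in each list are named, together with those that encode further subunits. Baz2a, Sirt7 and Ttf1, the genes of their list that were higher without overlap, were added after their values were seen. Alternatives changed the filter, the scaling, the test and its variance model, a floor for low values, the probe set of a gene, the class of shared subunits, the replicate number and each array in turn. The ANOVA of the study's methods, whose factors are not given, was run with the group as its factor.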

Additional observations from a re-analysis of the deposited data

How the results depend on the processing

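Calls, medians and the differences of 27 named member genes were recomputed under each alternative. The count of called probe sets was 0, and of called members 0, under every alternative except the methods' ANOVA with a fold above 2 and an unadjusted p, which called 207 probe sets, 1 of them a member (Taf1d), and a crossed replicate block. That block, which pairs control 1 with Myc-depleted 2 and control 2 with Myc-depleted 1, was chosen after seeing the data and called 21 probe sets and 0 members. Same-numbered arrays deviated in opposite directions (correlation -0.77). Whether they shared a culture or a batch is not stated, and this correlation cannot settle it. The fit with the replicate block of the labels called 0 probe sets and 0 members.

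Leaving out 1 array at a time, the median difference ran from -0.23 to -0.075 for RNA polymerase I, from -0.11 to -0.054 for RNA polymerase II, from -0.081 to 0.037 for RNA polymerase III and from -0.13 to -0.014 for shared subunits. With the mean of a gene's probe sets the median was -0.40 for RNA polymerase I and 0.090 for shared subunits. Without probe sets of the suffixes _x_at, _s_at and _a_at, which can match several transcripts, it was -0.45 for RNA polymerase I, -0.21 for RNA polymerase II and 1e-05 for RNA polymerase III. With the shared subunits counted in every polymerase it was -0.14 for RNA polymerase I. Leaving out suffixed probe sets removed Taf1b, Taf1c and Ubtf from RNA polymerase I and Polr2b, Polr2i and Polr2m from RNA polymerase II. It also moved Polr1e and Taf1d to other probe sets, so those medians rest on fewer genes and partly on other probe sets. With the mean of probe sets the middle gene of RNA polymerase I was Ubtf, at -0.40 against -0.12 on its brighter probe set. The count of member genes below 0 was 18 to 27, where the alternative without suffixed probe sets kept fewer than the 34 genes.

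Of the 27 named members 12 kept their direction under every alternative, among them Polr1a (-0.44 to -0.24), Polr1b (-0.84 to -0.27), Polr1e (-0.63 to -0.41), Polr3g (-0.84 to -0.50), Polr3gl (0.36 to 0.57) and Polr2h (-0.47 to -0.22). Much of this was fixed in advance. For these genes the groups did not overlap, so leaving out 1 array could not turn the sign. Changes of the filter, the floor or the test left their differences as they were. Polr1b, Polr2h, Polr3g and Polr3gl have 1 probe set each, so the choice of probe set could not change them. The lowest adjusted p of a named member over all fits, which include the crossed block chosen after seeing the data, was 0.0992, for Polr3g. In the main limma fit its adjusted p was 0.428. Rrn3 was at 0.0028 after quantile normalization. With the mean of probe sets, Polr1d was at 0.12, Polr2a at -0.0078, Polr2f at 0.090 and Polr3k at 0.048. Without the suffixed probe sets, Polr1c was at -0.034, Polr3e at 0.13 and Polr3k at 0.31. Leaving out 1 array turned the sign of Brf1 (-0.018 to 0.50), Polr2a (-0.26 to 0.47), Polr2b (-0.10 to 0.16), Polr2d (-0.55 to 0.10), Polr2e (-0.029 to 0.29), Polr3a (-0.032 to 0.12), Polr3f (-0.30 to 0.23), Polr3k (-0.34 to 0.23), Rrn3 (-0.075 to 0.048), Bdp1 (-0.70 to 0.0025) and Polr3c (-0.18 to 0.0010). It moved Taf1d (-0.60 to -0.0059), Polr2c (-0.38 to -0.042), Polr2g (-0.42 to -0.15) and Polr3b (0.11 to 0.41) by over 1.5 times with no turn of sign. A fit that leaves 1 array in a group assumes that it varies like the other group.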
